A study of Homo sapiens with 3 samples.

Results

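The genes described here are 9 targets of NRF2, the transcription factor that controls the antioxidant response. They are *NQO1*, *HMOX1*, *GCLM*, *GCLC*, *TXNRD1*, *SRXN1*, *PGD*, *AKR1B10* and *AKR1C1*, and they were chosen by name out of the 21614 genes that have a named probe on the array, with earlier results of these data known. They are represented by 11 of the 30004 named probes and by 20 spots on each array. A probe of 8 of the 9 genes was well above background on all arrays, as were probes of 12031 genes in all. *AKR1C1* was not measurable.

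The cells were HCT116, an established human colon cancer cell line. One culture was treated with control siRNA, another with siRNA #7 and the last with siRNA #8, both of which target *HOXA5* short RNA, a transcript of the *HOXA6*-*HOXA5* locus. The siRNAs were given at 10 nM for 48 h. From each culture 400 ng of RNA was labeled with Cy3 and hybridized to 1 Agilent SurePrint G3 array, and the 3 arrays shared 1 slide and 1 scan. All 3 groups therefore share the transfection, and they differ in the siRNA. With 1 array per condition there was no replicate check, and the values below are descriptions of 3 arrays without a test. An alternative that joins both siRNA arrays and tests them by limma is given in the section on processing alternatives. The methods name a pair of control siRNAs and do not say which of them these cells received.

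The siRNAs are not independent in sequence, and the oligonucleotides are shown because every difference described below is between them or between one of them and control siRNA. Both are 21 bases long, and a stretch of 17 bases, in capitals, is present in both. They are written 5′ to 3′ as the study lists them, without a statement of the strand.
siRNA #7: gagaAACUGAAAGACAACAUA
siRNA #8: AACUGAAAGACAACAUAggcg
The shared stretch starts at base 5 of siRNA #7 and at base 1 of siRNA #8.

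In unstressed cells NRF2, encoded by *NFE2L2*, is bound by KEAP1, which presents it to a ubiquitin ligase built on CUL3, and it is degraded. Oxidants and electrophiles modify cysteines of KEAP1, NRF2 escapes degradation, pairs with a small MAF protein and binds antioxidant response elements near its target genes. BACH1 competes for the same elements as a repressor, and *HMOX1* is its best known target. The products of the targets make glutathione, reduce thioredoxin and peroxiredoxins, supply NADPH, and detoxify quinones, carbonyls and heme.

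The core of the antioxidant response element is TGACNNNGC. This motif was searched on both strands of the RefSeq promoters of GRCh38.p14, each reaching from 250 bases before to 50 bases after a transcription start, and 13.3% of the 35116 promoters held at least 1 match. The table held 8 promoters of 7 of the genes. It had no entry for *HMOX1* or *AKR1B10*. At least 1 match was found in the promoters of *GCLM*, *PGD* and *TXNRD1*, which has 2 listed starts, and none in those of *NQO1*, *GCLC*, *SRXN1* and *AKR1C1*. The matches are shown, with the motif in capitals and 10 bases on either side, because this element is what the 9 genes are known to share. Each is written in the direction of its gene, so a match on the opposite strand reads GCNNNGTCA.
*GCLM*, chr1:93909446-93909474, minus strand of the genome, motif starting 34 bases before the transcription start on the strand opposite to the gene: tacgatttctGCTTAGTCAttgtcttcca
*PGD*, chr1:10398853-10398881, plus strand, motif starting 201 bases before the start, on the opposite strand: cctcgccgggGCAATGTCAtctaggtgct
*TXNRD1*, upstream start, chr12:104215670-104215698, plus strand, motif starting 99 bases before the start, on the same strand: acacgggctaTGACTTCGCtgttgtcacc
*TXNRD1*, upstream start, chr12:104215761-104215789, plus strand, motif starting 8 bases before the start, on the opposite strand: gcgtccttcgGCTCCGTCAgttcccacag
*TXNRD1*, downstream start, chr12:104286920-104286948, plus strand, motif starting 102 bases before the start, on the opposite strand: gtggatttctGCTTTGTCAttctgactct
These are letter matches in a short window. Binding of NRF2 was not measured here, and the absence of a match says only that the letters are not in this window.

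The deposited value of a spot is its intensity after background subtraction, in units of the scanner, with no scaling between arrays. The level of a probe is the log2 of its intensity, averaged over its spots, minus the log2 of that array's 75th percentile, an intensity of 52.8 for control siRNA, 42.1 for siRNA #7 and 42.8 for siRNA #8. A log2 ratio is the difference between 2 such levels of 1 probe, and its error is the spot-to-spot SD (SD of the ratio from repeated printing of probes of similar brightness), which leaves out any variation between cultures. The *HOXA5* probe, the check of the targeted locus, gave intensities of 84.9 (control siRNA), 52.6 (siRNA #7) and 58.5 (siRNA #8). Against control siRNA the log2 ratio was -0.36 for siRNA #7 (error 0.25) and -0.23 for siRNA #8 (error 0.26), and whether it reads *HOXA5* short RNA was not tested. Of 8 epithelial markers 6, among them *EPCAM*, *CDH1* and *KRT8*, were well above background on all arrays, while *VIL1* and *LGALS4* were not. Of 9 markers of other cell types 1, *COL1A1*, was. In RNA from whole cultures, fewer cells of a type and less RNA per cell cannot be told apart.

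With siRNA #7, none of the 8 measured targets was 2-fold higher or lower than with control siRNA. *HMOX1* was 1.59-fold lower, and the other 7 genes lay within a log2 ratio of -0.52 to 0.33. With siRNA #8, *NQO1*, *TXNRD1* and *AKR1B10* were 2.42-fold, 2.26-fold and 2.14-fold lower, and *HMOX1* was 1.39-fold higher. No target was 2-fold higher with siRNA #8. Between the siRNAs themselves, *NQO1* and *TXNRD1* were at least 2-fold lower and *HMOX1* was 2.21-fold higher with siRNA #8 than with siRNA #7.

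These counts stand beside a background of all 12031 genes with a passing probe, and since the targets were chosen with results known, the difference from it is a description. With siRNA #7, 2.05% of all genes were past 2-fold on the higher side and 1.72% on the lower side, against 0 and 0 of the 8 targets. With siRNA #8 these shares were 1.95% higher and 3.03% lower, against 0 and 3 of the 8 targets. Set against siRNA #7, siRNA #8 had 2.27% of all genes past 2-fold on the higher side and 3.37% on the lower, against 1 and 2 of the targets. The median log2 ratio of the 8 targets was 0.025 with siRNA #7, where that of all genes was 0.016, and -0.24 with siRNA #8, where that of all genes was 0.0072. From siRNA #7 to siRNA #8 the median of the targets was -0.34 and that of all genes -0.013. All genes spread over -0.66 to 0.70 with siRNA #7 and over -0.82 to 0.71 with siRNA #8 between their 5th and 95th percentiles.

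The 3 targets lower with siRNA #8 lay in the dimmer groups of the measured genes. When all genes were ordered by mean level over the arrays and cut into 4 equal groups, *AKR1B10* lay in the dimmest group and *NQO1* and *TXNRD1* in the next. *TXNRD1* had levels of 1.55 (control siRNA), 1.59 (siRNA #7) and 0.38 (siRNA #8), each above the percentile used for scaling. *NQO1* had 0.62, 0.95 and -0.66 in the same order, below that percentile with siRNA #8 alone. *AKR1B10* had -1.10, -1.61 and -2.19, below that percentile on each array. At least 2-fold lower with siRNA #8 were 3.29% of the genes of the dimmest group, 3.76% of the next, 3.22% of the third and 1.83% of the brightest. The other 5 targets lay in the brighter groups, *GCLC* in the third and *HMOX1*, *GCLM*, *SRXN1* and *PGD* in the brightest. The part of brightness in the ratios of the targets was not tested.

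**Figure D1:**
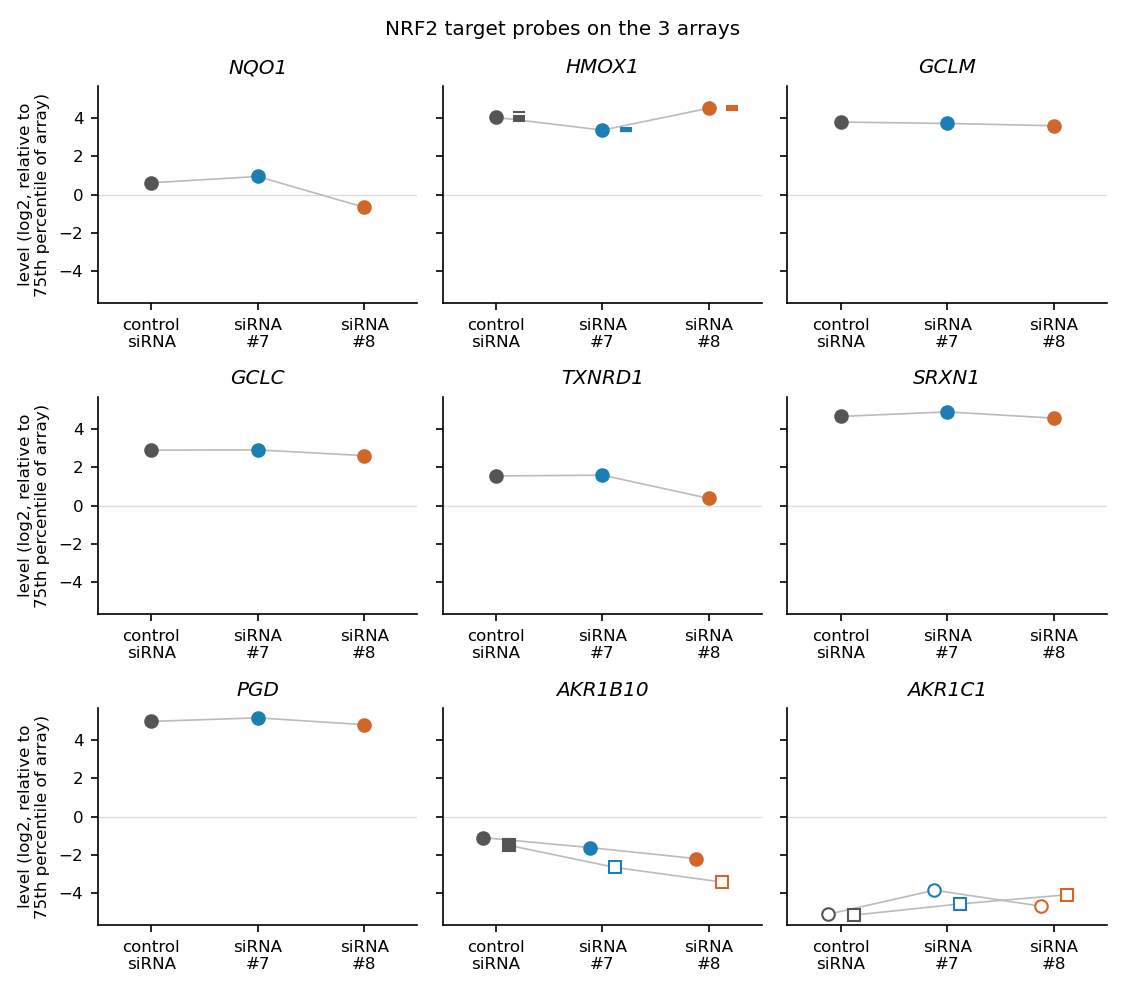
Level of each probe of the 9 NRF2 targets on the 3 arrays, as log2 intensity relative to the array's 75th percentile (0, grey line). A circle is the first and a square the second probe of a gene, filled where the probe was well above background and open where it was not, and dashes beside the *HMOX1* circles are its single spots. The levels of different probes cannot be compared. *NQO1* and *TXNRD1* are lowest with siRNA #8, the *HMOX1* spots of the 3 arrays form 3 separate groups at this scaling, and all *AKR1C1* symbols are open.

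*NQO1* encodes NAD(P)H quinone dehydrogenase 1, which reduces quinones to hydroquinones and is a common readout of NRF2 activity. Its 1 probe (A_23_P206661) gave intensities of 81.1 (control siRNA), 81.1 (siRNA #7) and 27.1 (siRNA #8). The siRNA #8 array stood apart, with the control and siRNA #7 arrays at like intensities. After scaling, its log2 ratio was 0.33 with siRNA #7 (error 0.25) and -1.28 with siRNA #8 (error 0.34), both against control siRNA. From siRNA #7 to siRNA #8 the ratio was -1.60 (error 0.32), and 0.66% of all genes were lower still in that comparison. The spot lay in the last column of the array, column 164. For the 11 passing spots within 3 rows and columns of it, the median deviation differed by -0.04 between siRNA #8 and control siRNA. A deviation is the log2 level of a spot minus its mean over the 3 arrays.

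*TXNRD1* encodes the cytosolic thioredoxin reductase, which uses NADPH to keep thioredoxin reduced. Its 1 probe (A_33_P3351120), designed on 1 of its transcript variants, gave intensities of 155 (control siRNA), 127 (siRNA #7) and 55.5 (siRNA #8). As for *NQO1*, the siRNA #8 array was the low one. Against control siRNA its log2 ratio was 0.04 with siRNA #7 (error 0.16) and -1.17 with siRNA #8 (error 0.21), and 1.80% of all genes were lower than that with siRNA #8. From siRNA #7 to siRNA #8 the ratio was -1.21 (error 0.20). The median deviation of its 21 neighbouring spots differed by -0.02 between siRNA #8 and control siRNA.

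*AKR1B10* encodes an aldo-keto reductase that reduces retinaldehyde and other aldehydes. Its passing probe (A_23_P93641) gave intensities of 24.7 (control siRNA), 13.7 (siRNA #7) and 9.36 (siRNA #8). The control array was the highest, and both siRNA arrays were lower. The log2 ratio was -0.52 with siRNA #7 (error 0.40) and -1.09 with siRNA #8 (error 0.41), and the difference between the siRNAs was -0.58 (error 0.38). Its second probe (A_24_P129341) had intensities of 18.7, 6.69 and 4.02 in the same order and was well above background with control siRNA alone. On each dimmer array, the lowest level well above background or the level of the probe there was taken, whichever was higher. The control level of the probe was 2.21-fold above it for siRNA #7 and 2.17-fold above it for siRNA #8. These values leave out the spot-to-spot error, which was 0.40 and 0.41 for the passing probe. They also rest on a probe measured with control siRNA alone, so they do not bound the change. *AKR1B15* is a close copy of *AKR1B10*, and whether the probes separate them was not tested.

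Under normexp background correction, which adds an offset of 50 to each spot, these calls were lost. The offset draws the ratios of low intensities toward 0. The intensity of *AKR1B10* was 24.7 with control siRNA, below the offset, so that gene could hardly stay past 2-fold. With normexp the log2 ratios of siRNA #8 to control siRNA were -0.51 for *NQO1*, -0.75 for *TXNRD1* and -0.14 for *AKR1B10*. None of the targets was then past 2-fold. Under the other 7 alternatives that could change these values, all 3 genes were past 2-fold and lower with siRNA #8. Among the 7, the deposited log2 values and the keeping of flagged spots could change them little. Both gave -1.28 for *NQO1*, the value reported. Another 3 (the mean of the passing probes and both weaker filters) left each target on the same probe and scaling, so they gave the same values by construction.

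*HMOX1* encodes heme oxygenase 1, which opens heme to biliverdin and releases iron and carbon monoxide. It was the target measured most often, since its probe (A_23_P120883) is printed on 10 spots of each array, of which 10, 9 and 9 were free of an outlier flag. With control siRNA the spot intensities ran from 757 to 1059 with a median of 851. With siRNA #7 they ran from 413 to 473 with a median of 430, and with siRNA #8 from 925 to 1050 with a median of 964. The unscaled ranges of control siRNA and siRNA #8 overlap. After scaling, the spot levels ran from 3.84 to 4.33 with control siRNA, from 3.30 to 3.49 with siRNA #7 and from 4.43 to 4.62 with siRNA #8, so the 3 arrays did not overlap. These spots are repeated readings of 1 culture each and not replicates of a condition.

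The ratios of *HMOX1* to control siRNA had opposite signs with the 2 siRNAs. Against control siRNA its log2 ratio was -0.67 with siRNA #7 (error 0.049), and 4.96% of all genes were lower. With siRNA #8 it was 0.48 (error 0.052), and 88.4% of all genes were lower. From siRNA #7 to siRNA #8 it was 1.14 (error 0.049), with 98.6% of all genes below it, and it lay between 1.07 and 1.21 under the alternatives. Against control siRNA the alternatives gave -0.97 to -0.66 with siRNA #7 and 0.24 to 0.53 with siRNA #8. With spike-in scaling the spot levels of siRNA #8 ran from 4.198 to 4.38 and overlapped those of control siRNA, 3.84 to 4.33 on that scale.

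*GCLC* and *GCLM* encode the catalytic and the modifier subunit of glutamate-cysteine ligase, the enzyme of the rate-limiting step of glutathione synthesis. The *GCLC* probe (A_23_P145114) gave intensities of 393 (control siRNA), 316 (siRNA #7) and 261 (siRNA #8), and the *GCLM* probe (A_33_P3265606) had 729, 552 and 517. The raw intensities were highest with control siRNA for both, as was the 75th percentile of that array. After scaling, the log2 ratio of *GCLC* was 0.0098 with siRNA #7 (error 0.16) and -0.29 with siRNA #8 (error 0.18). For *GCLM* it was -0.073 with siRNA #7 (error 0.15) and -0.19 with siRNA #8 (error 0.17). Each of these values lay within 2 errors of 0.

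*SRXN1* encodes sulfiredoxin, which restores overoxidized peroxiredoxins. Its probe (A_23_P320113) gave intensities of 1329 (control siRNA), 1248 (siRNA #7) and 1012 (siRNA #8). The log2 ratio was 0.24 with siRNA #7 (error 0.14) and -0.09 with siRNA #8 (error 0.15). From siRNA #7 to siRNA #8 the ratio was -0.33 (error 0.15).

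*PGD* encodes phosphogluconate dehydrogenase, an NADPH-producing enzyme of the pentose phosphate pathway. Its probe (A_23_P126623) gave intensities of 1655 (control siRNA), 1497 (siRNA #7) and 1191 (siRNA #8). The log2 ratio was 0.18 with siRNA #7 (error 0.14), -0.17 with siRNA #8 (error 0.15) and -0.35 between the siRNAs (error 0.15). The median deviation of the 14 neighbouring spots of this probe differed by -0.33 between the siRNAs. With the deviation of the neighbours removed the ratio of *PGD* was -0.03.

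*AKR1C1* encodes an aldo-keto reductase that reduces steroids and other carbonyl compounds. Neither of its probes was well above background on an array. The first (A_23_P257971) gave intensities of 1.54 (control siRNA), 2.94 (siRNA #7) and 1.68 (siRNA #8), and the second (A_24_P152968) gave 1.496, 1.79 and 2.53. The probes differ in which array was highest, and no ratio is given for them.

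**Figure D2:**
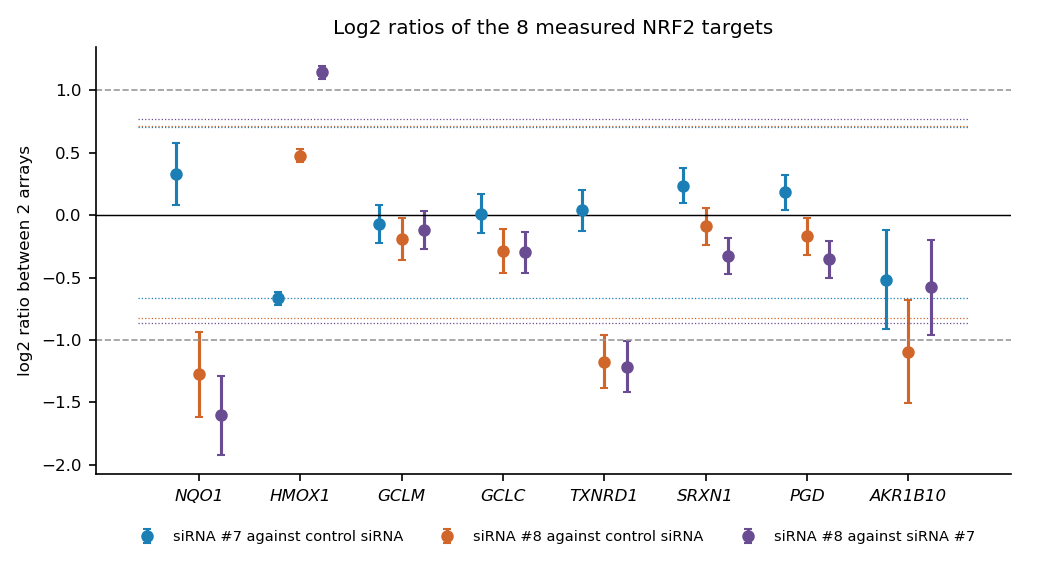
Log2 ratio between 2 arrays (vertical axis) for the 8 measured NRF2 targets, with bars of 1 spot-to-spot SD on either side, which do not cover variation between cultures. Dashed lines mark 2-fold and dotted lines of the same color the 5th and 95th percentiles of all 12031 genes. *NQO1*, *TXNRD1* and *AKR1B10* lie below -1 with siRNA #8, and *HMOX1* lies at -0.67, 0.48 and 1.14 in the 3 comparisons.

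The order of the targets can be read at few places. With siRNA #7 the order of log2 ratios from low to high was *HMOX1*, *AKR1B10*, *GCLM*, *GCLC*, *TXNRD1*, *PGD*, *SRXN1*, *NQO1*, and no neighbours in it differed by more than 2 combined spot-to-spot errors. With siRNA #8 it was *NQO1*, *TXNRD1*, *AKR1B10*, *GCLC*, *GCLM*, *PGD*, *SRXN1*, *HMOX1*. The step from *AKR1B10* to *GCLC* was 0.81 (combined error 0.45), within 2 errors, and the step from *SRXN1* to *HMOX1* was 0.57 (combined error 0.16), beyond them. From siRNA #7 to siRNA #8, *HMOX1* stood apart from the next gene, *GCLM*, by 1.26 (combined error 0.16). Apart from *HMOX1*, the 7 measured targets were all lower with siRNA #8 than with siRNA #7. Their log2 ratios ran from -1.60 (*NQO1*) to -0.12 (*GCLM*), while 48.8% of all genes were above 0 in that comparison. The signs of the 7 stayed the same under the 8 alternatives that could move these values. Of these alternatives, the deposited log2 values and the keeping of flagged spots moved the ratios very little. Scaling by the array median, by probes well above background or by the spike-in controls moves every gene by 1 amount. Between the siRNAs that amount was smaller than the ratio of *GCLM*, the nearest to 0, so these scalings could not change a sign. *GCLM* lay within its error of 0.15, and its ratio was -0.01 with the deviation of neighbouring spots removed.

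Both comparisons with control siRNA rest on the same control array, and some of their signs depend on the scaling. With the arrays scaled on the E1A spike-in controls, RNAs added in known amounts, the median of all genes was -0.29 with siRNA #7 and -0.23 with siRNA #8. The log2 ratios of *GCLC*, *TXNRD1*, *SRXN1* and *PGD* with siRNA #7 were then -0.30, -0.27, -0.07 and -0.12, below 0 in place of above. The same 3 genes were past 2-fold with siRNA #8 under that scaling. It moves every gene of an array by 1 amount and leaves the differences between targets within a comparison as they were.

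**Figure D3:**
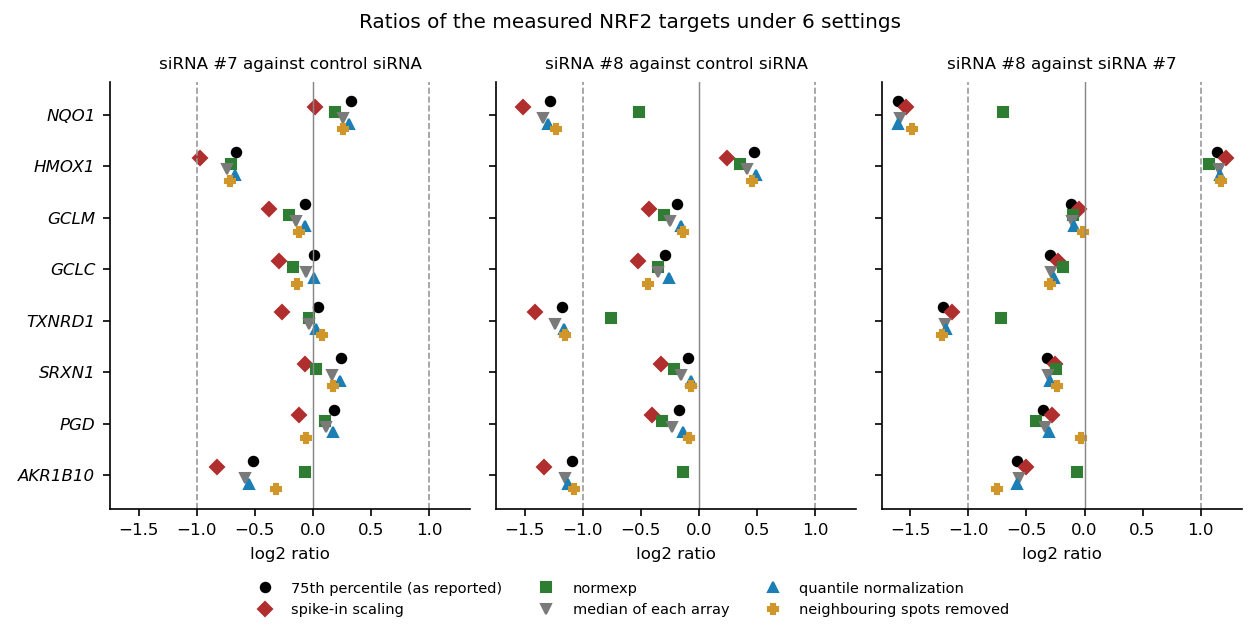
Log2 ratios (horizontal axis) of the 8 measured NRF2 targets in the 3 comparisons under 6 ways of processing, with dashed lines at 2-fold. Under normexp (green squares) *NQO1*, *TXNRD1* and *AKR1B10* move inside the lines, and spike-in scaling (red diamonds) moves all ratios to control siRNA to the left by 1 amount per panel.

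The regulators of the pathway were measured on the same arrays. The *NFE2L2* probe, at intensities of 1.67 (control siRNA), 3.70 (siRNA #7) and 1.93 (siRNA #8), was well above background on none of the arrays, so the transcript of NRF2 itself has no measured ratio here. Of 12 regulators 11 were measured and none was past 2-fold with either siRNA. Of all genes, 2.05% were past it on the higher and 1.72% on the lower side with siRNA #7. With siRNA #8 these shares were 1.95% and 3.03%, and 0 of 11 genes is near them. The log2 ratios of the regulators had a median of -0.07 for siRNA #7 and -0.01 for siRNA #8. *KEAP1*, whose probe is also printed on 10 spots, gave intensities of 674 (control siRNA), 631 (siRNA #7) and 579 (siRNA #8). Its log2 ratio was 0.23 with siRNA #7 (error 0.052) and 0.08 with siRNA #8 (error 0.056). Signs among the regulators depend on the scaling. With spike-in scaling 0 of the 11, so not *KEAP1* either, were above 0 with siRNA #7, against 4 as reported. With siRNA #8 it was 2 of the 11, against 5. That scaling put the median of all genes at -0.29 with siRNA #7 and -0.23 with siRNA #8, so most genes were below 0.

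*BACH1* differed more with siRNA #8. It gave intensities of 149 (control siRNA), 113 (siRNA #7) and 70.4 (siRNA #8). The siRNA #8 array was the lowest. The log2 ratio was -0.07 with siRNA #7 (error 0.16) and -0.78 with siRNA #8 (error 0.21), and its second probe was not well above background. *MAFF*, a small MAF partner, had -0.28 and -0.79 (errors 0.079 and 0.11), and *BTRC*, a ubiquitin ligase subunit that also targets NRF2, had 0.26 and 0.99 (errors 0.16 and 0.18). *MAFF* and *BTRC* are named because their values were seen to be the regulators farthest below and above 0 with siRNA #8.

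A list of 50 other NRF2 targets was examined beside the 9. Of the 50, 40 were measured, and with siRNA #8 none was 2-fold higher or lower, against the 1.95% and 3.03% of all genes given above. Their median log2 ratio was 0.10 with siRNA #8, with 24 above 0 and 16 below, and 0.03 with siRNA #7, with 21 above and 19 below. Of all genes, 50.8% were above 0 with siRNA #8 and 51.7% with siRNA #7. The counts of the list depend on the scaling. With spike-in scaling and siRNA #8, 3 of 12 glutathione and thiol enzymes and 3 of 6 NADPH enzymes were above 0. So were 4 of 11 detoxification enzymes and 2 of 9 genes of transporters, iron and heme. With siRNA #7 these groups had 2, 1, 3 and 3 above 0. Most of all genes were below 0 under that scaling too, with medians of -0.23 for siRNA #8 and -0.29 for siRNA #7. Between the siRNAs (siRNA #8 minus siRNA #7), where 7 of the 8 measured targets were below 0, this list had a median of 0.14, with 26 above 0 and 14 below. With siRNA #7, 1 was at least 2-fold lower, *NQO2*, and 1 at least 2-fold higher, *SLC6A9*, beside 1.72% and 2.05% of all genes. Whether the 9 targets differ from this list was not tested.

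*NQO2*, a quinone reductase related to *NQO1*, gave intensities of 688 (control siRNA), 221 (siRNA #7) and 388 (siRNA #8). Its log2 ratio was -1.31 with siRNA #7 (error 0.15) and -0.52 with siRNA #8 (error 0.17). A second probe gave -0.79 and -0.55 (errors 0.40 and 0.41). The low array of *NQO2* was thus that of siRNA #7, where that of *NQO1* was siRNA #8. *SLC6A9*, a glycine transporter, gave intensities of 132 (control siRNA), 270 (siRNA #7) and 96.1 (siRNA #8), with log2 ratios of 1.35 (error 0.16) and -0.16 (error 0.18). Its second probe was not well above background.

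By function, 12 of 14 glutathione and thiol enzymes were measured, and their median was 0.10 for siRNA #7 and 0.14 for siRNA #8 on the log2 ratio scale. With siRNA #8, 10 of the 12 were above 0, where 50.8% of all genes were. With spike-in scaling 3 of the 12 were, where the median of all genes was -0.23. *SLC7A11*, the cystine transporter that feeds glutathione synthesis, was below 0 with both, at -0.48 (error 0.16) and -0.56 (error 0.21). The 11 measured detoxification enzymes had medians of -0.13 and -0.18, and the 9 measured genes of transporters, iron and heme had 0.03 and 0.05.

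Of the lists with more than 2 measured genes, the NADPH enzymes other than *PGD* had the median farthest from 0 between the siRNAs. All 6 were measured, and their median log2 ratio from siRNA #7 to siRNA #8 was 0.56, with 5 above 0. None was past 2-fold, where 2.27% of all genes were higher and 3.37% lower. In the pentose phosphate pathway, *TKT*, transketolase, had 0.81 (error 0.15), and *PGLS*, the lactonase just before *PGD*, had -0.72 (error 0.15). *PGD* had -0.35 on the same scale. *SLC7A11*, *TKT* and *PGLS* were named after their values were seen.

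**Figure D4:**
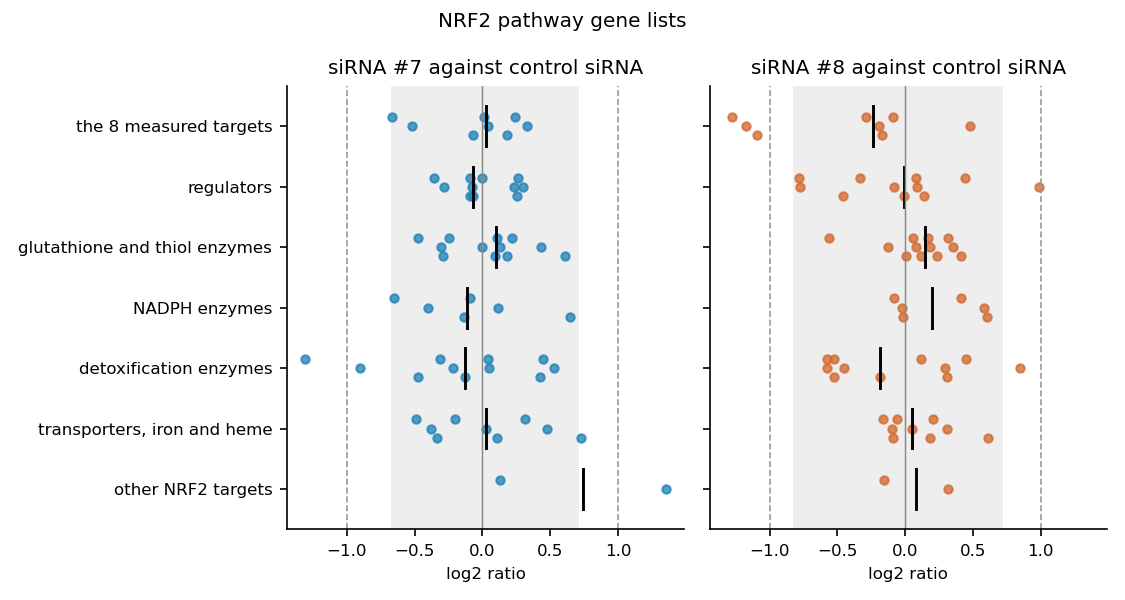
Log2 ratios to control siRNA (horizontal axis) of each measured gene (point) of the NRF2 target and pathway lists, with the list median as a black bar. Grey shading spans the 5th to 95th percentile of all 12031 genes and dashed lines mark 2-fold. With siRNA #8 the points past the left dashed line are *NQO1*, *TXNRD1* and *AKR1B10*, and with siRNA #7 *NQO2* and *SLC6A9* lie outside the lines.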

How the data were processed

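The authors read the scans with Agilent Feature Extraction 11.5.1.1, and each deposited spot intensity is background-subtracted. The authors also deposited log2 values of the same arrays, centred on each probe's median (the median of each array's column was 0), whose differences between arrays had a slope of 1.00 to those of log2 intensity. The submitters' notes name GeneSpring without the normalization. Against control siRNA, the deposited differences departed from those scaled here by a median of -0.0029 for siRNA #7 and -0.00088 for siRNA #8. Between the siRNAs the median departure was 0.0020. As an alternative, the deposited values are thus nearly the same scaling.

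Levels were computed with Python 3.11.15, numpy 2.4.6 and pandas 2.3.3. Spots flagged as outliers were dropped (409, 413 and 313 of 58717 gene spots with control siRNA, siRNA #7 and siRNA #8), and no spot was saturated. A probe passed when it was well above background on all 3 arrays (on at least 50% of its spots) and not under the 20th percentile on 2 or more. This left 18121 of 50599 gene probes. Each gene was given by its brightest passing probe, named through RefSeq. The error of a ratio came from probes printed 10 times, within 6 ranges of signal. The pooled spot SD was 0.18, 0.15 and 0.17 (log2). Having 1 array per condition limits the precision.

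The 9 genes and all lists were chosen with earlier results of these data known. Named were all probes of the 9 genes, list genes past 2-fold with either siRNA, *NFE2L2*, *KEAP1*, *BACH1* and *HOXA5*, and others where stated. Limma 3.58.1 (R 4.3.3), with both siRNA arrays as 1 group, was an alternative. The others were the array median, quantile normalization, a percentile over probes well above background, spike-in scaling, normexp (offset 50), the deposited log2 values, the mean of a gene's probes, weaker filters, removal of the deviation of spots within 3 rows and columns, flagged spots kept and a 1.5-fold threshold. The steps were tested on simulated data. The deposited file names number the siRNAs differently from the labels, which were followed. The design of the array follows an older genome build, so no coordinates are given for the probes. The coordinates of the motif matches are those of GRCh38.p14.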

Additional observations from a re-analysis of the deposited data

How the results depend on the processing

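Each count and median of the 8 measured targets was recomputed under other processing. With siRNA #8 against control siRNA, 3 targets were past 2-fold under each alternative but normexp, which gave 0. Between the siRNAs normexp gave 1 in place of 3. Its offset draws the ratios of low intensities toward 0. With siRNA #7 against control siRNA the count was 0, except 1 with no filter on dim probes (*AKR1C1*, not well above background) and 1 at a threshold of 1.5-fold (*HMOX1*, lower). Without the filter, 5.58% of all genes were at least 2-fold higher with siRNA #7 and 3.37% lower. The share of all genes past 1.5-fold was not computed. With scaling on the spike-in controls the median of the targets was -0.28 with siRNA #7 and -0.48 with siRNA #8. The medians under all other alternatives moved by less than the typical spot-to-spot error of a single target, a wide measure for a median of 8. The median with siRNA #7, 0.025 as reported, changed sign under some of them. It was -0.048 with the array median, -0.054 with normexp and -0.091 with the deviation of neighbouring spots removed. The mean of the passing probes and both weaker filters on dim probes left the values of the 8 targets as they were by construction. Of the other 128 log2 ratios of single targets to control siRNA, 104 moved by less than the target's own spot-to-spot error. The remaining 24 moved by more, 13 of them under spike-in scaling and 7 under normexp. No target past 2-fold changed sign. The 104 include all ratios from the deposited log2 values and from the keeping of flagged spots, which could move them little.

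Over all genes the split into at least 2-fold higher and lower also changed. With spike-in scaling 124 were higher and 553 lower with siRNA #7, 125 and 697 with siRNA #8, and 350 and 328 between the siRNAs, and with normexp 63 and 102, 42 and 179, and 71 and 113, against 247 and 207, 235 and 364, and 273 and 406 as reported. Normexp was run on median spot signals.

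With limma and both siRNA arrays as 1 group against the 1 control array, 0 of the 8 targets passed an adjusted p of 0.05 and 0 an unadjusted p of 0.05 (lowest unadjusted 0.067 by limma, *AKR1B10*), where 1 of 12031 genes passed the adjusted threshold and 396 the unadjusted one. This joins arrays that differed for *NQO1*, *TXNRD1* and *HMOX1*, and its spread between cultures comes from the siRNA arrays alone. No paired analysis was possible because there is 1 array per condition, and for the same reason no array was left out. Dim probes limit *NQO1* and *AKR1B10* most, and *NFE2L2* and *AKR1C1* gave no ratio.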
